A study of Homo sapiens with 18 samples.

Results

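The response of A549 cells to the second of 3 siRNAs against BLM was measured in 6 RNA sequencing libraries, 3 given siRNA2 and 3 given a control siRNA. A549 is a lung adenocarcinoma cell line. The series also holds 3 A549 libraries each of BLM siRNA1 and siRNA3, used below as a further comparison, and 6 libraries of a breast cancer line, so the comparison described here covers 6 of 18 libraries. Genes were taken where at least 3 of the 6 libraries reached 1 CPM (read counts scaled to library size), which left 13532 of 27968 listed genes. Of these, 405 passed only through the siRNA2 libraries and 120 only through the control libraries, so for them a difference was built into the filter.

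Every A549 group came from cells grown in DMEM with 10% serum and transfected with siRNA, and differed by the siRNA alone as far as the labels tell. A549 is a single established line, the 3 libraries of a group are numbered without being described as separate cultures, and the protocols name both flat and 3D culture without assigning a library to either. The p-values below therefore measure only how far these libraries scatter, and that scatter may be technical. In bulk RNA, fewer cells of a type and less RNA per cell cannot be told apart.

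BLM is a RecQ DNA helicase that works with the topoisomerase TOP3A and the small subunits RMI1 and RMI2 to take apart recombination intermediates without crossing over, and it helps stalled replication forks to restart. Inherited loss of BLM causes Bloom syndrome, with short stature, many sister chromatid exchanges and a high cancer risk. Copying of DNA starts when origins are loaded with the MCM helicase in G1 (licensing), goes on when kinases and the CDC45 and GINS proteins switch that helicase on (firing), and needs polymerases, sliding clamp and nucleotides. A549 cells retain part of the programme of secretory lung epithelium.

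The deposited expected counts summed to 32890798 to 40328208 per library over the 6 libraries, with 5.64% to 6.44% in the 10 most abundant genes. No replicate pair held identical counts. Control library 2 was the lowest of the 3 control libraries for 4620 of 13532 genes (34.1%). Among the A549 groups used for comparison, siRNA3 library 3 stood apart from its replicates, with a standard deviation of log2 differences from its group mean of 0.31 against 0.128 to 0.219 in the other 11 A549 libraries, so results against siRNA3 are given with and without it. Defining cell type markers were mostly low. Of 13 alveolar type 2 markers 9 stayed under 1 TPM (a level scaled to transcript length and library size) in all 6 libraries, and so did 6 of 11 leukocyte, 5 of 9 fibroblast and 6 of 7 endothelial markers. The surfactant genes that define type 2 cells were among those untested for low counts.

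The siRNA2 libraries had 10.1, 10.5 and 10.7 CPM of BLM, against 79.1, 81.4 and 71.2 CPM in the control libraries. The groups were far apart and each was tight: the siRNA2 level was 13.5% of control (log2 fold change -2.88 ± 0.08 SE, adjusted p = 2.7e-10, edgeR quasi-likelihood test with Benjamini-Hochberg adjustment over all 13532 genes, used for every adjusted p against control below). Its complex was lower as well. RMI2 stood at 11.6, 14.3 and 13.1 CPM with siRNA2, against 52.9, 55.9 and 49 CPM in control, a log2 fold change of -2.02 ± 0.09. RMI1 (-1.04 ± 0.08) and TOP3A (-0.75 ± 0.07) fell less. The resection nucleases EXO1 (-1.33 ± 0.08) and DNA2 (-1.36 ± 0.08), which trim broken ends together with BLM, fell too, and among the other RecQ helicases the fall ran to -0.78 for RECQL. WRN was at the edge of the test (-0.18 ± 0.08, adjusted p = 0.048), and its call was lost without any 1 of siRNA2 libraries 1 and 2 and control libraries 1 and 2 (adjusted p 0.133 to 0.185). All 10 genes of the complex and helicase list were called lower.

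Across all genes tested, 9833 (72.7%) were called at an adjusted p under 0.05, 4896 higher (36.2%) and 4937 lower (36.5%), so a called gene is the usual case here and sizes matter more than calls. Every count of higher and lower list members against control is to be read beside these shares. At a fold of 2 or more the balance was different: 1445 genes were higher (10.7%) and 758 lower (5.6%), and at a fold of 4 or more 396 were higher (2.93%) and 69 lower (0.51%). The 3 siRNA2 and 3 control values did not overlap for 10160 genes (75.1%). The median log2 fold change over all genes was -0.00726.

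Replication genes were lower at each step of the process. All 15 licensing genes tested were called lower (median log2 fold change -1.08), as were all 11 firing genes (median -1.12) and all 15 fork and lagging strand genes (median -0.73). MCM3, a subunit of the replicative helicase, had 57.9, 56.8 and 55.2 CPM with siRNA2, against 234, 234 and 221 CPM in control (-2.02 ± 0.06, adjusted p = 3.0e-10). The other helicase subunits fell less, from -1.09 ± 0.06 for MCM7 to -1.54 ± 0.07 for MCM6, while the origin recognition subunit ORC2 fell by only 0.48 on the log2 scale. Among firing factors MCM10, which links the helicase to polymerase alpha, stood at 31.3, 30 and 30.6 CPM with siRNA2, against 113, 117 and 110 CPM in control (-1.89 ± 0.07). The fall within the list was smallest for GINS4 (-0.52).

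Promoters of MCM3 and MCM6 are shown because these were the furthest lowered helicase subunits and hold an E2F motif, the element through which E2F factors drive S phase genes. The windows are from RefSeq on GRCh38.p14, on the gene's strand, from 250 bases before to 50 after the start, at chr6:52284693-52284992 (minus strand) for MCM3 and chr2:135876394-135876693 (minus strand) for MCM6, and capitals mark the motif.
MCM3: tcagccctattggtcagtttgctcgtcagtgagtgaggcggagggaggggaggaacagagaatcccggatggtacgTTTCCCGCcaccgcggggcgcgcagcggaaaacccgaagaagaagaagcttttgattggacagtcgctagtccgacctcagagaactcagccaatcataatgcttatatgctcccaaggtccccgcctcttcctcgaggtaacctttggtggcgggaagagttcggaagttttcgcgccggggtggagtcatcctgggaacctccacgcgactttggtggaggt
MCM6: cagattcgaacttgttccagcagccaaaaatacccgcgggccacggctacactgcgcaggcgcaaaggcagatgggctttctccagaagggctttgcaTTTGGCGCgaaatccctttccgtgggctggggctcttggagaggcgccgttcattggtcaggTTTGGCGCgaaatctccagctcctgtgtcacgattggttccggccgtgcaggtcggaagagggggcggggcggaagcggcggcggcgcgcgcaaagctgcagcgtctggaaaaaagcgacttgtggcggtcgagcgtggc
MCM3 has 1 match, at position -174 from the start, and MCM6 has 2, at -152 and -90. The letters searched were TTTCCCGC and TTTGGCGC on both strands. Of 53 genes in the licensing, firing, polymerase and fork lists 46 had a window in the table and 20 of these held a match (43.5%, exact binomial 95% interval 28.9% to 58.9%), against 750 of 27305 genes in the whole table (2.75%) and 471 of 10336 tested genes with a window (4.56%). A match is a description of the letters and not of a factor bound there.

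The synthesis machinery itself was less uniform. Of 12 polymerase genes 10 fell and 1 rose. The catalytic primase subunit PRIM1 had 24.5, 25.6 and 24.2 CPM with siRNA2, against 67.7, 69.7 and 55.8 CPM in control (-1.38 ± 0.09), and POLE2 of polymerase epsilon changed by -1.49 ± 0.10. POLD4, the smallest subunit of polymerase delta, went the other way at 0.46 ± 0.08, and POLD2 was not called (0.03 ± 0.07). PCNA, the sliding clamp, fell by 0.69 on the log2 scale, less than the clamp loader subunits RFC3 (-1.44 ± 0.10) and RFC4 (-1.32). In nucleotide supply 10 of 12 genes fell. DUT, which clears dUTP, had 30.5, 34.1 and 35.6 CPM with siRNA2, against 64.3, 73.3 and 65.4 CPM in control (-1.02 ± 0.08). SAMHD1, which breaks nucleotides down, was the 1 member that rose (0.38 ± 0.07).

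Cyclin and mitotic genes were mostly lower. Of 15 E2F, RB and G1/S cyclin genes 11 fell and none rose. Cyclin D1 (CCND1) had 342, 353 and 351 CPM with siRNA2, against 796, 879 and 889 CPM in control (-1.29 ± 0.06), and the S phase factors E2F1 (-1.14 ± 0.07) and E2F2 (-1.57 ± 0.09) and the kinase CDK2 (-1.46 ± 0.08) fell too. CCNE1 was not called (0.14 ± 0.08). The mitotic list had 14 of 15 members lower (median -0.61), with the checkpoint effector CDC20 lowest at 67, 71 and 62.8 CPM with siRNA2, against 178, 200 and 201 CPM in control (-1.53 ± 0.07). The proliferation marker MKI67 was near the other end. Its siRNA2 values of 712, 716 and 646 CPM overlapped the control values of 916, 703 and 929 CPM, with a log2 fold change of -0.30 ± 0.10 and an adjusted p of 0.014, and the call was lost without control library 1 (adjusted p = 0.0793) or control library 3 (0.0769). The CHR element of mitotic genes (TTTGAA) stood in 8 of 13 mitotic promoters with a window (61.5%, interval 31.6% to 86.1%), against 18.2% of the whole table, and the CCAAT box in 11 of 13 (84.6%), against 39.7%.

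Brakes on the cycle and p53 targets were mostly higher. The CDK inhibitor CDKN1A (p21) had 170, 171 and 150 CPM with siRNA2, against 60.2, 63.7 and 66.3 CPM in control (1.37 ± 0.07), and CDKN2C rose by a similar 1.2 ± 0.07. CDKN2A and CDKN2B were too low to be tested. Of 15 arrest targets 13 rose and 1 fell. BTG2, an antiproliferative factor, led them with 48.8, 49.7 and 44.8 CPM with siRNA2, against 9.53, 9.72 and 8.09 CPM in control (2.39 ± 0.09). The p53 negative regulator MDM2 rose by 1.23 ± 0.07, while its relative MDM4 fell (-0.40).

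Death and repair targets of p53 split by member. Of 15, 10 rose, 1 fell and 4 were not called. BBC3 (PUMA), a BH3-only killer, had 18.7, 18 and 16.5 CPM with siRNA2, against 3.51, 4.69 and 4.44 CPM in control (2.07 ± 0.11), and BAX rose by 0.66. The damage recognition gene DDB2 fell instead (-0.42 ± 0.07). Across the BCL2 family 5 members rose and 7 fell of 13 tested, against 36.2% higher and 36.5% lower over all genes. The rises were all in members that promote death, namely BBC3, BIK, BMF, BAX and BAK1. The largest falls were in protective members: BCL2A1 had 2.39, 2.47 and 2.5 CPM with siRNA2, against 11.1, 14.8 and 11.2 CPM in control (-2.34 ± 0.14), and MCL1 changed by -1.12 ± 0.09. The killers BAD (-0.28) and BCL2L11 (-0.44) were also called lower.

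Structures that hold epithelial cells together were higher part by part. Desmosome genes, which anchor keratin filaments between cells, rose in 9 of 9 members tested (median 1.26). Periplakin (PPL) had 68.8, 65 and 56 CPM with siRNA2, against 9.32, 8.55 and 8.87 CPM in control (2.83 ± 0.09). Adherens junction genes rose in 10 of 11, of which NECTIN4 passed the filter only through the siRNA2 libraries. The adhesion molecule EPCAM was the furthest, with 47.9, 48.9 and 60.2 CPM with siRNA2, against 2.52, 2.38 and 1.94 CPM in control (22.9-fold, 4.52 ± 0.13). CTNNB1 was the 1 member not called (0.14 ± 0.06, adjusted p = 0.051). E-cadherin CDH1 (1.94 ± 0.08) and N-cadherin CDH2 (0.65 ± 0.06) both rose.

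Tight junction genes, which seal the space between cells, rose in 10 of 15 and fell in 2 (median 1.84); CLDN7 and MARVELD3 passed the filter only through the siRNA2 libraries. The pore-forming claudin CLDN2 had 154, 134 and 153 CPM with siRNA2, against 20.4, 14.7 and 21.7 CPM in control (2.96 ± 0.13). The scaffold TJP3 rose by 2.95 ± 0.12, and TJP1 was not called (0.07). CLDN1 (-0.06 ± 0.08) and OCLN (0.13 ± 0.08) were not called either, and the plaque protein cingulin CGN fell (-0.67 ± 0.09). The rise was therefore spread unevenly over members of 1 structure. Hemidesmosome and basement membrane genes, which fix cells to their base, rose in 13 of 15 and fell in none. Integrin beta 4 (ITGB4) had 381, 345 and 334 CPM with siRNA2, against 82.2, 69.7 and 94 CPM in control (2.11 ± 0.10). COL17A1 was lower in level and further up, with 15.9, 16.7 and 15.3 CPM with siRNA2, against 1.06, 1.27 and 1.13 CPM in control (3.78 ± 0.11).

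Keratins changed in both directions, 5 higher and 3 lower of 9 tested, against 36.2% and 36.5% over all genes. KRT6A passed the filter only through the siRNA2 libraries. KRT19 had 235, 224 and 216 CPM with siRNA2, against 41, 45.4 and 44.3 CPM in control (2.37 ± 0.07). The abundant KRT7 had 1592, 1670 and 1496 CPM with siRNA2, against 2730, 3120 and 3151 CPM in control (-0.92 ± 0.07), and KRT81 changed by -1.39 ± 0.07, although reads of hair keratins with near-identical copies are shared by estimation. KRT18 was not called (0.04 ± 0.06). Among epithelial transcription and splicing factors 6 of 9 tested rose and FOXA2 was called lower (-0.19), a call lost without siRNA2 library 1 or 2 or control library 1 or 3 (adjusted p 0.0615 to 0.154). GRHL3, which passed the filter only through the siRNA2 libraries, rose furthest (3.11 ± 0.16), followed by the ETS factors EHF (2.51 ± 0.13) and ELF3 (1.42 ± 0.06). GRHL2, ESRP1 and ESRP2 were too low to be tested.

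**Figure D1:**
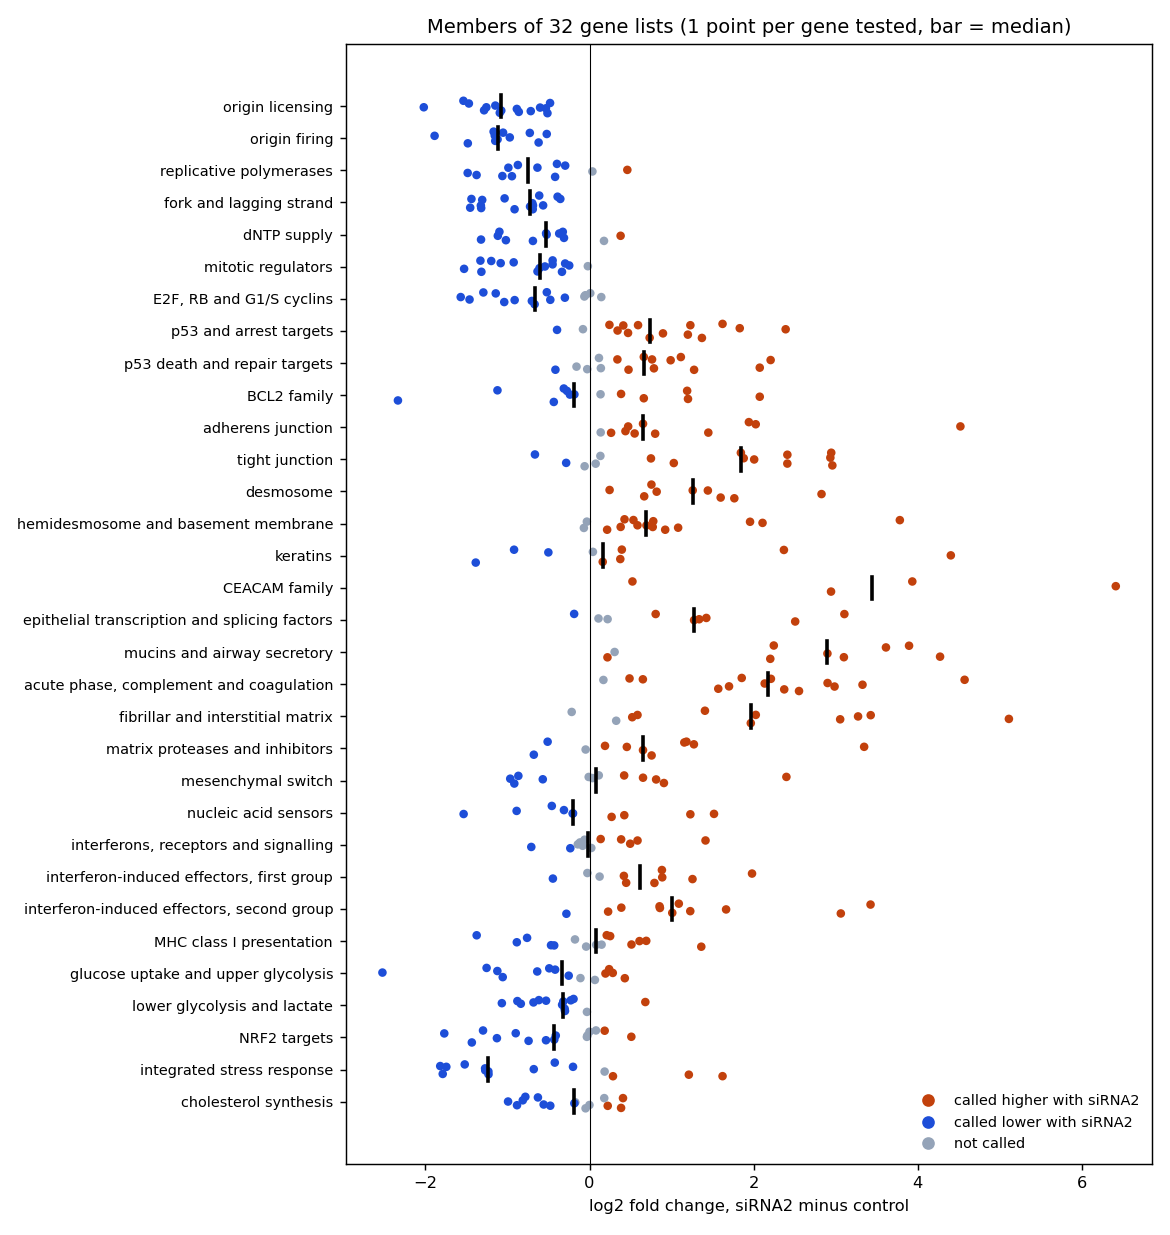
Each point is 1 tested member of 32 gene lists, placed by its log2 fold change, siRNA2 minus control; orange points were called higher, blue points lower and grey points not called, and the black bar is the list's median. All points of the licensing, firing and fork lists lie below 0 (medians -1.08, -1.12 and -0.73), while the medians of the CEACAM, mucin and acute phase lists lie at 3.44, 2.90 and 2.17.

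CEACAM adhesion molecules, cell surface glycoproteins of which CEACAM5 is the carcinoembryonic antigen, held the largest rise of the comparison. CEACAM5 had 25.9, 20.3 and 23.1 CPM with siRNA2, against 0.519, 0.106 and 0.176 CPM in control, an 85.3-fold difference (6.41 ± 0.25, adjusted p = 1.3e-09), and passed the filter only through the siRNA2 libraries. CEACAM6 was far more abundant, with 387, 381 and 391 CPM with siRNA2, against 26.8, 20.8 and 28.1 CPM in control (15.3-fold, 3.93 ± 0.10). CEACAM1 had 28.3, 24.8 and 26.2 CPM with siRNA2, against 4.36, 2.3 and 3.63 CPM in control (2.94 ± 0.16). All 4 tested members of the 12 listed were higher, and the 8 others were under the filter. These genes are similar in sequence, and the counting can share reads among them.

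Genes of mucus and airway secretion rose together. Of 9 tested members of 15, 8 were higher and none lower (median 2.90). SPDEF, the transcription factor that drives goblet cell formation, had 32.2, 29.9 and 28 CPM with siRNA2, against 2.15, 1.59 and 2.29 CPM in control (14.9-fold, 3.89 ± 0.12). The gel-forming mucin MUC5B had 131, 96 and 126 CPM with siRNA2, against 8.13, 1.85 and 8.22 CPM in control (4.27 ± 0.34), and MUC5AC had 164, 126 and 148 CPM with siRNA2, against 33.4, 22.4 and 36.5 CPM in control (2.25 ± 0.15). In both mucins library 2 was the lowest of its group on each side. AGR2, a disulfide isomerase of secretory cells, was the most abundant member, with 485, 443 and 443 CPM with siRNA2, against 113, 84.1 and 101 CPM in control (2.2 ± 0.10). The membrane mucins MUC1 (2.90 ± 0.17) and MUC16 (3.1 ± 0.33) and the iron-binding lipocalin LCN2 (3.61 ± 0.13) rose as well. TFF1 was not called (0.31 ± 0.16). Club cell products SCGB1A1 and SCGB3A1 were under the filter.

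Plasma proteins of the acute phase, complement and clotting, which liver makes in bulk and A549 in part, were higher in 13 of 14 tested genes and lower in none (median 2.17), 3 of the 14 having passed only through the siRNA2 libraries. All chains of fibrinogen, the clot protein, rose. FGB had 107, 94.4 and 116 CPM with siRNA2, against 17.1, 11.1 and 14.3 CPM in control (2.90 ± 0.13), and FGG (2.21 ± 0.16) and FGA (1.85 ± 0.14) followed. The central complement protein C3 had 310, 296 and 316 CPM with siRNA2, against 53.8, 42.6 and 60.8 CPM in control (2.55 ± 0.11). CFI, a protease that inactivates complement, changed by 2.37 ± 0.20. The clotting inhibitor TFPI rose by 2.13 ± 0.12, and TFPI2 was the 1 gene not called (0.17 ± 0.10). The protease inhibitor SERPINA1 had only 2.64, 2.18 and 2.17 CPM with siRNA2, against 0.0519, 0.159 and 0.0756 CPM in control (4.57 ± 0.30).

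Control library 2 was the lowest control library for 7 of 9 mucin and secretory genes, 9 of 14 acute phase genes, 3 of 4 CEACAM genes and 7 of 11 matrix genes, against 34.1% of all genes; its part in these results was not tested. Without that library the log2 fold change was 3.86 for MUC5B, 2.67 for MUC16, 6.06 for CEACAM5, 2.77 for FGB, 2.44 for C3 and 2.23 for FN1, all still called.

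**Figure D2:**
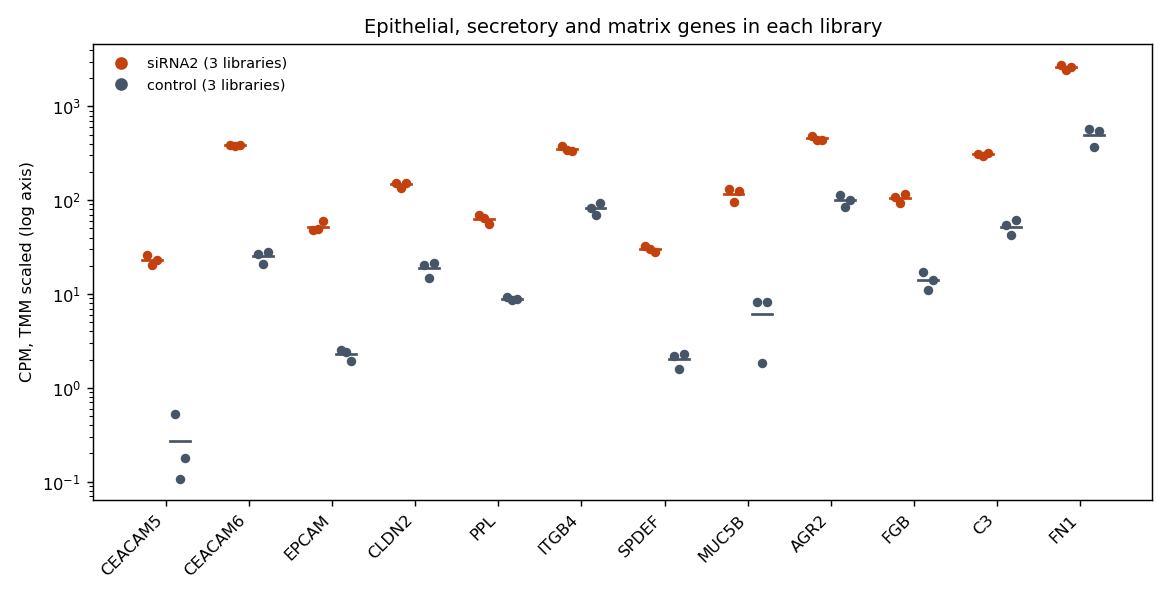
CPM of 12 epithelial, secretory and matrix genes in each library on a log axis, with siRNA2 libraries left in orange and control libraries right in grey, and a bar at each group mean. The 12 genes were chosen from those called higher, and in all 12 the 3 siRNA2 values lie above the 3 control values. Over all genes tested 75.1% did not overlap. MUC5B is the most scattered of the 12 in control (1.85 to 8.22 CPM).

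Matrix genes were higher in 9 of 11 tested and lower in none (median 1.97). Fibronectin FN1, the most abundant, had 2786, 2445 and 2651 CPM with siRNA2, against 578, 368 and 548 CPM in control (2.40 ± 0.14). Tenascin-C (TNC) had 28.4, 30.4 and 25.5 CPM with siRNA2, against 0.701, 0.635 and 1.08 CPM in control (34.6-fold, 5.11 ± 0.15), and fibrillin FBN1 had 175, 166 and 153 CPM with siRNA2, against 16.6, 12.4 and 16.8 CPM in control (3.43 ± 0.11). The collagen chains COL1A1 (3.05 ± 0.09) and COL3A1 (3.27 ± 0.14), which also serve as fibroblast markers, rose too, COL3A1 having passed the filter only through the siRNA2 libraries. The summed level of the 9 fibroblast markers was 23.4 to 25.2 TPM with siRNA2, against 9.26 to 11 TPM in control, and the fibroblast markers COL1A2, PDGFRA, PDGFRB, DCN, LUM and FAP were under the filter. Matrix proteases and inhibitors rose in 8 of 11 and fell in 2. The epithelial protease MMP7 had 85.9, 81.6 and 97.7 CPM with siRNA2, against 10, 8.08 and 7.94 CPM in control (3.35 ± 0.11), whereas MMP9 was lower (-0.68 ± 0.19).

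Genes of the epithelial to mesenchymal switch were called in both directions, 5 higher and 4 lower of 12, close to the 36.2% and 36.5% over all genes. The repressors of epithelial genes ZEB1 (-0.97 ± 0.08), ZEB2 (-0.92) and SNAI1 (-0.87) fell, and TWIST1 (-0.57) lost its call without siRNA2 library 1, control library 1 or control library 2 (adjusted p 0.0722 to 0.0921). SNAI2 rose (0.81 ± 0.20), and so did vimentin VIM (0.42 ± 0.06). In the smooth muscle list 6 of 12 rose and 1 fell. ACTA2, alpha smooth muscle actin, was far beyond the others with 37.8, 39.8 and 36 CPM with siRNA2, against 2.47, 2.17 and 2.44 CPM in control (16.0-fold, 4.00 ± 0.09). TAGLN, often measured beside it, had 5.65, 5 and 5.26 CPM with siRNA2 and 4.91, 5.24 and 5.42 CPM in control and was not called. In TGF-beta signalling the receptor TGFBR2 rose to 812, 815 and 795 CPM with siRNA2, against 207, 193 and 203 CPM in control (2.01 ± 0.06), while the signal carriers SMAD3 (-1.08 ± 0.06) and SMAD4 (-0.92 ± 0.09) fell. Over that list 8 of 14 rose and 3 fell.

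Interferon-induced effectors were mostly higher. In the first group 7 of 10 tested rose and 1 fell (median 0.62), and in the second 10 of 11 rose and 1 fell (median 1.01). The list of interferons, receptors and signalling had 5 of 12 higher and 2 lower. Over all genes 36.2% were higher and 36.5% lower. MX1, which blocks viruses, had 2.87, 3.3 and 3.77 CPM with siRNA2, against 0.857, 0.874 and 0.781 CPM in control (1.98 ± 0.17). IFI44L was low throughout at 1.32, 1.52 and 1.43 CPM with siRNA2, against 0.104, 0.185 and 0.101 CPM in control (3.43 ± 0.28), and IFI44 changed by 3.06 ± 0.22. These 3 members passed only through the siRNA2 libraries. The receptor chain IFNAR2 fell (-0.71 ± 0.08). The interferon genes IFNB1 and IFNL1 were under the filter.

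Promoters of IFI44 and IFI44L are shown because they rose furthest among the effectors and hold the interferon-stimulated response element. The RefSeq windows on GRCh38.p14 lie at chr1:78649539-78649838 (plus strand) and chr1:78620198-78620497 (plus strand), and capitals mark the element, on the reverse strand in IFI44.
IFI44: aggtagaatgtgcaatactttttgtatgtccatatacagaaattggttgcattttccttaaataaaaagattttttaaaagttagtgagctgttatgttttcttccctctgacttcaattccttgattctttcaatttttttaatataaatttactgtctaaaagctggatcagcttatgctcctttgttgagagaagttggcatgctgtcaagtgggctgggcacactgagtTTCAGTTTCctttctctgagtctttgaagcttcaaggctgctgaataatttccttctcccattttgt
IFI44L: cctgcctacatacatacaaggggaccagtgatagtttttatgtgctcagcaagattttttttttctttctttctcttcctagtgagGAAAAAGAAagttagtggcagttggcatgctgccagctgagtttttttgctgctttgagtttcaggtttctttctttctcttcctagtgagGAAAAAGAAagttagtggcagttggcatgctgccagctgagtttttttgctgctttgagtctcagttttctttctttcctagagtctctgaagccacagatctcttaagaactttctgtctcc
IFI44 has 1 match, at -17, and IFI44L has 2, at -164 and -73. Another RefSeq window of IFI44, at chr1:78649581-78649880, holds the same element at -59 from its own start. The letters searched were GAAANNGAA on both strands. Of 30 effectors listed 24 had a window and 19 of these held a match (79.2%, interval 57.8% to 92.9%), against 9.86% of the 27305 genes in the table.

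Sensors of foreign nucleic acid were called in both directions, 4 higher and 6 lower of 10 tested, against 36.2% and 36.5% over all genes. The RNA sensors TLR3 (1.52 ± 0.21) and IFIH1 (1.23 ± 0.11) rose. The DNA sensor CGAS had 4.3, 4.43 and 4.49 CPM with siRNA2, against 12.7, 13.7 and 11.9 CPM in control (-1.53 ± 0.10), and the RNA-activated kinase EIF2AK2 fell (-0.89). Class I antigen presentation had 6 genes higher and 5 lower of 15, also close to the shares over all genes. Of the heavy chains HLA-B fell to 9.78, 10.2 and 9.12 CPM with siRNA2, against 23, 27.1 and 25.5 CPM in control (-1.38 ± 0.09) and HLA-C rose (0.51 ± 0.07), although reads of these similar genes are shared by estimation. B2M rose by 0.61 ± 0.07, and the transporter TAP1 (-0.76 ± 0.09) and the immunoproteasome subunit PSMB9 (-0.89 ± 0.11) fell. The class II list was mostly untested, 10 of 15, including CIITA and CD74, but HLA-DMB, a peptide loading chain, had 11.8, 9.63 and 11.3 CPM with siRNA2, against 1.87, 1.16 and 1.79 CPM in control (2.76 ± 0.16), and its partner HLA-DMA rose by 1.77 ± 0.17.

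In the NF-kB list 5 of 14 fell and 3 rose, against 36.5% lower and 36.2% higher over all genes, so the falls were near that share. The subunit NFKB2 stood at -1.53 ± 0.07 and the regulator NFKBIZ at 1.75 ± 0.08. Of 11 cytokine and chemokine genes 4 rose and 3 fell, against 72.7% called in either direction over all genes. CXCL1 (1.77 ± 0.17), CXCL8 (1.1 ± 0.10) and IL32 (1.67 ± 0.11) were higher and CCL2 was lower (-0.79 ± 0.13).

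Glycolysis genes were mostly lower. From glucose uptake to triose phosphates, 8 of 14 genes were lower and 4 higher, against 36.5% and 36.2% over all genes. From there to lactate 12 of 14 were lower and 1 higher. Hexokinase 2 (HK2), which traps glucose in the cell, had 0.815, 1.12 and 0.891 CPM with siRNA2, against 4.96, 5.32 and 6.02 CPM in control (-2.52 ± 0.16). The next enzyme GPI had 440, 439 and 419 CPM with siRNA2, against 909, 908 and 1011 CPM in control (-1.12 ± 0.06). Lactate dehydrogenase LDHA had 1218, 1224 and 1265 CPM with siRNA2, against 2603, 2564 and 2608 CPM in control (-1.07 ± 0.05), and the lactate exporter SLC16A3 changed by -0.88 ± 0.07. The glucose transporter SLC2A1 was called at 0.19 ± 0.07, but not without siRNA2 library 1 (adjusted p = 0.104) or control library 1 (0.0813). Among phosphofructokinases PFKP fell (-1.06 ± 0.07) as PFKL rose (0.43 ± 0.07). The pyruvate dehydrogenase kinase PDK4 rose (0.68 ± 0.09). The hypoxia list, which shares targets with glycolysis, had 4 higher and 7 lower of 14, against 36.2% and 36.5% over all genes. In it CA9 stood at 1.91 ± 0.22 and NDRG1 at -1.01 ± 0.07. The core hypoxia element (ACGTG) stood in 15 of 26 glycolysis promoters (57.7%, interval 36.9% to 76.6%), against 24.9% of the whole table and 32.3% of tested genes.

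Integrated stress response genes, many of them induced by the factor ATF4, fell in 11 of 15 and rose in 3 (median -1.23). Over all genes 36.5% were lower and 36.2% higher. The one-carbon enzyme MTHFD2 had 90.7, 96.6 and 101 CPM with siRNA2, against 331, 356 and 311 CPM in control (-1.79 ± 0.07), and SHMT2 had 57.4, 57.1 and 53.3 CPM with siRNA2, against 177, 193 and 192 CPM in control (-1.75 ± 0.07). The serine pathway enzymes PHGDH (-1.52 ± 0.08) and PSAT1 (-1.23 ± 0.07) fell with them. SLC7A5 and SLC3A2, the paired chains of a large neutral amino acid transporter, changed by the same amount (-1.27 ± 0.08 and -1.27 ± 0.06). ATF4 fell less (-0.68 ± 0.06). ATF3 (1.21 ± 0.15) and SESN2 (1.62) were among those that rose.

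NRF2 targets, the antioxidant genes active in A549 through its KEAP1 mutation, fell in 9 of 15 and rose in 2. The glutathione genes led: GCLM had 51.9, 55.2 and 71.2 CPM with siRNA2, against 207, 205 and 197 CPM in control (-1.77 ± 0.10), with SRXN1 at -1.43 ± 0.07, the cystine transporter SLC7A11 at -1.30 ± 0.13 and GCLC at -1.13 ± 0.07. The other 4 were not called. Cholesterol synthesis genes fell in 8 of 15 and rose in 3 (median -0.185), with IDI1 (-0.99 ± 0.10) and HMGCS1 (-0.88 ± 0.07) lowest. Beside the NRF2 and cholesterol counts, 36.5% of all genes were lower and 36.2% higher.

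Receptors and ligands changed one by one, and the counts below stand against 36.2% higher and 36.5% lower over all genes. In the WNT list 9 of 14 rose and 3 fell. LGR6, a receptor for R-spondins, had 49, 41.1 and 43.5 CPM with siRNA2, against 1.4, 0.927 and 1.26 CPM in control (37.1-fold, 5.21 ± 0.13), and RNF43, which removes WNT receptors, rose by 2.14 ± 0.11. In the ERBB list 6 of 12 rose and 3 fell: the receptor ligands EGF (2.00 ± 0.20) and BTC (1.86 ± 0.19) rose, and HBEGF fell (-0.67 ± 0.14). Among MAPK feedback and immediate early genes 6 of 15 rose and 4 fell, again close to the shares over all genes, with JUN (1.46 ± 0.08) and FOS (1.17 ± 0.12) higher and MYC (-0.93 ± 0.07) and DUSP5 (-1.29 ± 0.07) lower. The RNA interference machinery, through which siRNAs act, had 7 of 13 members lower and 2 higher, with AGO1 at -0.65 ± 0.10 and TNRC6B at 0.64 ± 0.08. Ribosomal protein genes had 8 of 15 lower and 2 higher (median -0.16), and 5 lower without control library 2.

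Beyond the lists, several more genes stood among the 20 largest rises with an average log2 CPM of at least 1. HABP2, a plasma protease, had 5.34, 4.51 and 6.27 CPM with siRNA2, against 0.104, 0.0794 and 0.0756 CPM in control (5.91 ± 0.26), and passed the filter only through the siRNA2 libraries. The cadherin CDH17 had 57.9, 48.1 and 58.2 CPM with siRNA2, against 4.52, 2.46 and 2.97 CPM in control (4.04 ± 0.16), and the lipid transporter ABCA12 had 22.8, 22.1 and 19.9 CPM with siRNA2, against 1.56, 0.794 and 1.44 CPM in control (4.09 ± 0.16). Others near the top were the amino acid transporter SLC6A14 (5.14 ± 0.43), SPOCK3 (5.0 ± 0.25), the sphingolipid enzyme subunit SPTLC3 (4.55 ± 0.17), the protease inhibitor SPINT1 (4.27 ± 0.18), PRR15L (4.16 ± 0.17), the anticoagulant protein C gene PROC (4.00 ± 0.16), CDH6 (3.97 ± 0.14) and MAOB (3.92 ± 0.21), all of which passed the filter only through the siRNA2 libraries, so that a difference was built in. PCDHGB5, also near the top, shares exons with its neighbours and is uncertain.

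The largest fall was in NPTX1, neuronal pentraxin, with 6.02, 5.89 and 5.7 CPM with siRNA2, against 206, 214 and 202 CPM in control (-5.14 ± 0.08, adjusted p = 1.1e-12). It fell further than BLM, the targeted gene. The neuronal and synaptic list had 6 of 10 lower and 3 higher, against 36.5% and 36.2% over all genes. In it the kinesin KIF5C stood at -3.34 ± 0.19 and SNAP25 at -1.60 ± 0.11. Of the 10 tested in this list, 1 passed the filter only through the siRNA2 libraries. Another 1 passed only through the control libraries, so a difference was built in for both. MRPL51, a mitochondrial ribosome protein, had 22.1, 24.6 and 21.5 CPM with siRNA2, against 173, 186 and 155 CPM in control (-2.91 ± 0.09). Sorbitol dehydrogenase SORD had 13.8, 12 and 12.5 CPM with siRNA2, against 77.1, 85.1 and 78.3 CPM in control (-2.65 ± 0.08). The inositol transporter SLC5A3 (-2.69 ± 0.13), the ferric reductase CYBRD1 (-2.47 ± 0.08) and TERT, the catalytic subunit of telomerase (-2.68 ± 0.15), fell to a similar extent, as did the ubiquitin ligase MARCH4 (-3.08 ± 0.13), TMEM158 (-2.82 ± 0.19) and HES7 (-2.88 ± 0.24). SMN2, GTF2H2C, MAGED4, SMG1P7, LOC102723360, PHOSPHO2-KLHL23 and SENP3-EIF4A1 also ranked among the 20 lowest, but are copies or readthrough transcripts whose reads are shared with a partner and are uncertain, and the call of LOC102723360 was lost without control library 2 (adjusted p = 0.0764).

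By abundance, on the length-scaled TPM scale, the 10 largest rises included TMSB4X, ACTB, S100A6, S100A4 and ANXA1. The actin-binding thymosin TMSB4X averaged 8258 TPM with siRNA2 and 4188 TPM in control, and in CPM it had 1988, 2032 and 1843 with siRNA2, against 1056, 1095 and 980 in control (0.91 ± 0.06). ACTB had 3485, 3535 and 3324 CPM with siRNA2, against 1958, 2172 and 2377 CPM in control (0.67 ± 0.07), and the calcium-binding proteins S100A6 (0.70 ± 0.07), S100A4 (0.91 ± 0.07) and ANXA1 (0.84 ± 0.08) rose as well. The largest losses in TPM were in RPS7, with 628, 627 and 592 CPM with siRNA2, against 1291, 1366 and 1195 CPM in control (-1.06 ± 0.06), then the nucleolar chaperone NPM1 (-0.88 ± 0.07), KRT7, GAPDH (-0.33 ± 0.06) and KRT81. Thioredoxin TXN had 439, 441 and 427 CPM with siRNA2, against 899, 1029 and 824 CPM in control (-1.08 ± 0.08). A row for the mitochondrial ribosomal RNA RNR1 took 0.192% to 0.203% of counts with siRNA2, against 0.0917% to 0.0968% in control, while RNR2 was not called (-0.06 ± 0.07).

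The siRNA2 libraries were also tested directly against those of the other BLM siRNAs. The fit held the 12 A549 libraries and 14098 genes, and CPM was scaled over all 12. These contrasts do not use the control level, so a call can come from a change with the other siRNA. Against siRNA1, 8307 genes (58.9%) were called, 3912 higher with siRNA2 (27.7%) and 4395 lower (31.2%). Against siRNA3, 8692 genes (61.7%) were called, 4122 higher (29.2%) and 4570 lower (32.4%), and without siRNA3 library 3 it was 9050, 4567 higher and 4483 lower. BLM itself was higher with siRNA2 than with siRNA1 (3.14 ± 0.10) and than with siRNA3 (0.68 ± 0.08, and 0.76 without siRNA3 library 3), so BLM was depleted least by siRNA2. The differences given below were called at an adjusted p under 0.05 by edgeR's quasi-likelihood test unless stated.

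Among the 10 genes furthest above both other siRNAs were CEACAM5, SPDEF, EPCAM, SERPINA3 and CTSV. Scaled over the 12 libraries, CEACAM5 had 25.64, 20.16 and 23.36 CPM with siRNA2, against 2.021, 1.257 and 1.2 CPM with siRNA1, 0.173, 0 and 0.03487 CPM with siRNA3 and 0.5265, 0.1081 and 0.18 CPM in control. SPDEF had 31.88, 29.72 and 28.32 CPM with siRNA2, against 3.043, 2.273 and 3.329 CPM with siRNA1, 1.038, 0.7001 and 1.395 CPM with siRNA3 and 2.185, 1.622 and 2.34 CPM in control. Its difference was 3.38 ± 0.17 from siRNA1 and 4.84 ± 0.20 from siRNA3 (5.11 without siRNA3 library 3). SPDEF was thus high only in the siRNA2 libraries among these 12. SERPINA3 was 3.52 ± 0.19 above siRNA1 and 3.36 ± 0.19 above siRNA3 (3.40 without that library). Its mean was 7.45 CPM with siRNA2 and 2.33 CPM in control, while siRNA1 (0.645 CPM) and siRNA3 (0.724 CPM) lay below control. EPCAM exceeded siRNA1 by 2.68 ± 0.13 and siRNA3 by 4.90 ± 0.15 (5.04 without that library). CTSV, a lysosomal protease, was of another kind: 21.1, 23.7 and 21.41 CPM with siRNA2 lay near the control values of 26.51, 26.87 and 22.84 CPM, and the siRNA1 libraries had 2.619, 2.968 and 3.083 CPM and the siRNA3 libraries 1.96, 2.5 and 2.545 CPM.

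Among the 10 genes furthest below both other siRNAs were TAGLN, AOX1, CTGF, KCNQ3 and RASGRP3. TAGLN had 5.602, 4.968 and 5.322 CPM with siRNA2, against 49.62, 43.72 and 47.56 CPM with siRNA1, 48.92, 61.84 and 60.67 CPM with siRNA3 and 4.975, 5.352 and 5.529 CPM in control. Its difference was -3.15 ± 0.11 from siRNA1 and -3.43 ± 0.11 from siRNA3 (-3.36 without siRNA3 library 3). AOX1, aldehyde oxidase, differed from siRNA1 by -2.97 ± 0.11 and from siRNA3 by -3.05 ± 0.11 (-3.05 without it). Its mean of 4.19 CPM with siRNA2 lay above the 2.61 CPM in control. With siRNA1 the mean was 32.8 CPM and with siRNA3 34.6 CPM. CTGF, a matricellular protein, had 4.125, 3.912 and 4.089 CPM with siRNA2, against 21.98, 24.63 and 22.26 CPM with siRNA1, 63.89, 66.81 and 78.52 CPM with siRNA3 and 13.32, 13.7 and 14.33 CPM in control, so it was below control with siRNA2 alone. The potassium channel gene KCNQ3 (-3.31 ± 0.17 and -3.64 ± 0.17) and RASGRP3 (-2.74 ± 0.19 and -4.22 ± 0.18) were under the filter of the comparison with control. Without siRNA3 library 3 their differences from siRNA3 were -3.60 and -4.30.

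**Figure D3:**
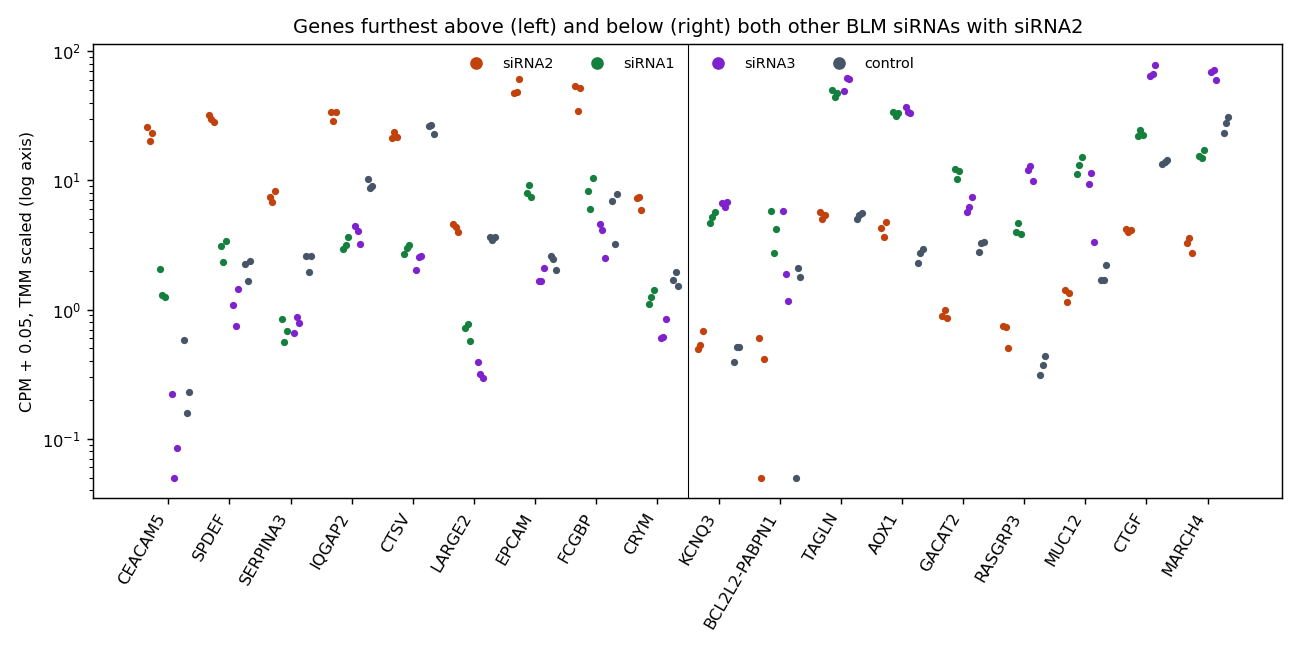
CPM plus 0.05, scaled over the 12 A549 libraries, on a log axis for 9 of the 10 genes furthest above and 9 of the 10 furthest below both other BLM siRNAs, with siRNA2, siRNA1, siRNA3 and control libraries from left to right within a gene. For TAGLN the siRNA2 values of 4.968 to 5.602 CPM lie at the control values while the other siRNAs lie above 43, and for SPDEF only siRNA2 lies above 28.

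By list, the siRNAs differed in degree and in kind. Over all genes 27.7% were higher and 31.2% lower with siRNA2 than with siRNA1, and 29.2% and 32.4% than with siRNA3. Mucin and secretory genes were higher with siRNA2 than with siRNA1 in 7 of 9 (2 lower) and than with siRNA3 in 9 of 9, also without siRNA3 library 3. For MUC5AC the values were 162.2, 125.5 and 150.2 CPM with siRNA2, against 41.33, 33.56 and 47.26 CPM with siRNA1 and 21.68, 20.54 and 14.57 CPM with siRNA3. Acute phase genes split by siRNA: 7 of 14 were higher and 3 lower than with siRNA1, and 12 higher and 2 lower than with siRNA3 (median 3.2, and 3.31 without siRNA3 library 3). C3 had 307.2, 294.6 and 320.2 CPM with siRNA2, against 302.4, 277.6 and 316.8 CPM with siRNA1 and 16.46, 17.13 and 15.69 CPM with siRNA3, and did not differ detectably from siRNA1 (0.04 ± 0.11). FGB was above siRNA1 by 2.17 ± 0.14 and above siRNA3 by 4.68 ± 0.16 (4.80 without that library). Smooth muscle genes were lower with siRNA2 in 9 of 12 against siRNA1 and in 7 of 12 against siRNA3, where 1 was higher (6 lower and 1 higher without siRNA3 library 3).

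Cell cycle genes were mostly higher with siRNA2 than with siRNA1, and against siRNA3 many were not called. Mitotic genes were higher with siRNA2 than with siRNA1 in 15 of 15 (median 4.05) and licensing genes in 13 of 15 (median 1.95). CDC20 had 66.39, 70.55 and 63.56 CPM with siRNA2, against 4.141, 3.343 and 4.611 CPM with siRNA1, 94.36, 103.4 and 126.1 CPM with siRNA3 and 180.8, 204.3 and 205.1 CPM in control. Against siRNA3, 6 of 15 mitotic genes were higher and 3 lower (8 and 4 without siRNA3 library 3), and 6 were not called. Of 15 licensing genes 1 was higher and 6 lower (4 and 5 without that library), and 8 were not called. Over all genes 29.2% were higher than with siRNA3 and 32.4% lower. The p53 death targets were lower with siRNA2 than with siRNA1 in 14 of 15 and higher in none, and BBC3 lay 0.99 below siRNA1 on the log2 scale (-0.99 ± 0.10) and 0.55 ± 0.10 above siRNA3 (0.63 without siRNA3 library 3). The NPTX1 fall was deepest with siRNA2, at 5.964, 5.853 and 5.773 CPM, against 27.91, 28.03 and 29.93 CPM with siRNA1, 62.85, 71.34 and 52.93 CPM with siRNA3 and 209.3, 218.7 and 206.3 CPM in control. MRPL51 followed the same order, with 21.91, 24.44 and 21.74 CPM with siRNA2, against 58.17, 53.73 and 56.23 CPM with siRNA1, 97.27, 104.5 and 153.6 CPM with siRNA3 and 175.7, 189.9 and 158.2 CPM in control.

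Summed cell type markers were higher with siRNA2 in each of the 5 classes, with no overlap between the groups. Of single genes tested, 75.1% did not overlap either, so this is the usual case here. The summed level of the 13 alveolar type 2 markers was 105 to 111 TPM with siRNA2, against 65.3 to 71.2 TPM in control. Of 3 type 2 markers tested LPCAT1 (0.98 ± 0.06) and ABCA3 (0.40) were higher and 1 was not called. The 8 alveolar type 1 markers summed to 296 to 353 TPM with siRNA2, against 244 to 268 TPM in control, the 11 leukocyte markers to 42.2 to 44.9 TPM, against 26.1 to 31.7 TPM, and the 7 endothelial markers to 22.9 to 23.4 TPM, against 13 to 14.9 TPM. These sums rest on few genes, as 5 type 1, 6 leukocyte and 6 endothelial markers stayed under 1 TPM in all 6 libraries. Of 3 type 1 markers tested 2 were higher and 1 lower. Of 3 leukocyte markers tested 2 were higher and 1 was not called. The 1 endothelial marker tested was higher. The fibroblast sums are given above, and the fibroblast marker LUM, under the filter, had 44, 34 and 35 counts with siRNA2, against 5, 4 and 5 counts in control. Their part in the results above was not tested.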

How the data were processed

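Total RNA of transfected A549 cells was sequenced after ribosomal RNA removal with a stranded kit, per the labels' protocols. The deposited expected counts estimate the reads of each gene and need not be whole; the submitters' processing notes name RSEM, without a version, and hg19. The deposited levels are named TPM in the headers, a measure that corrects for transcript length and sums to a set total. Groups came from the titles in the labels.

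Expected counts were rounded and tested in edgeR 4.0.16 (R 4.3.3) with TMM scaling, the filter of 1 CPM in at least 3 libraries, the quasi-likelihood F test and Benjamini-Hochberg adjustment, with a threshold of 0.05. Standard errors come from the F value. CPM values use TMM-scaled library sizes. Counts were also simulated for 13344 genes, with 200 genes changed, equally up and down, and the spread of each gene taken from these data. The test recovered 86.4% of 1.5-fold and 100% of 2-fold and 4-fold changes and called 14 other genes. In the data 72.7% of genes were called, so the simulation does not measure errors at that extent of change. The main test did not pair libraries by replicate number, and whether the numbers mark a pairing is not known.

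Members and the 51 gene lists were chosen with earlier results of these data known. Named genes were BLM, the 20 highest and 20 lowest called genes with an average log2 CPM of at least 1, the 10 largest TPM rises and falls, list members, and the 10 genes furthest above and below both other siRNAs; not all are printed, and some genes are not reported here. Promoter windows came from RefSeq on GRCh38.p14, another build than the counts, and were matched by gene symbol for 10336 of 13532 tested genes; motif shares have exact binomial intervals. Intervals cover counting error only. Alternatives used DESeq2 1.42.0 and limma 3.58.1, other filters, limma on log2 TPM with a pseudocount of 1 or 0.1, a replicate block, all 12 A549 libraries, and leaving out each library.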

Additional observations from a re-analysis of the deposited data

How the results depend on the processing

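Against control 9833 genes were called, and the alternatives called 9035 to 11020 of their own, of which 8745 to 9794 were shared with the 9833 at the same sign. A minimum absolute log2 fold change of 1 left 2203. With the replicate number as a block 9511 genes were called, 9452 of them shared with the same sign. The block called 7963 genes against siRNA1 and 8315 against siRNA3. Deviations from the group means correlated at 0.00435, -0.013 and -0.135 between same-numbered siRNA2 and control libraries. Differently numbered libraries correlated at -0.12 to 0.123. With 3 libraries per group these values cannot decide whether the numbers mark a pairing. Leaving out each library gave 9035 to 10043 calls against control, 7401 to 8227 against siRNA1 and 7823 to 9050 against siRNA3. On the log2 TPM scale the median of all genes moved to 0.0807 (plus 1) and 0.0907 (plus 0.1), with 57.6% of calls higher, against 49.8%. Signs turned for 4 named genes that were not called: CLDN1 (0.0368 and 0.0373 on the TPM scales), RNR2 (0.0432 on both, -0.0909 to 0.0235 without a library), POLD2 (-0.0042 without a filter, -0.0234 to 0.0948 without a library) and TAGLN (-0.00761 without a filter, -0.0101 to 0.0807 without a library). The cause was not tested. With all 12 libraries in 1 fit, 2 ribosomal protein genes were lower, against 8. Counting only bases before the start, motif shares were 32.6% for replication genes and 70.8% for interferon effectors. Depth limits genes near 1 CPM.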
